A study of Physcomitrium patens with 4 samples.

Results

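Near-identical gene copies are described here, as they were counted by RNA sequencing in the moss Physcomitrium patens. The name rests on the multi-mapping of their reads, and near-identity was not checked in sequence. The members are the 313 of 32273 listed genes for which at least 90% of the reads in at least 1 of the 4 libraries also mapped elsewhere in the genome, and which had at least 50 reads summed over the libraries. Of these, 143 shared their exact listed length with at least 1 other member and formed 66 equal-length groups, 58 of 2 members, 6 of 3, 1 of 4 and 1 of 5. The other 170 had no partner of equal length and are called lone members. The share of multi-mapping reads and the summed reads chose the members, so neither is a finding. The lowest qualifying share was exactly 90.0%, and the highest share outside the rule was 89.98% (Pp1s55_240V6). A further 278 genes passed the share but had fewer than 50 reads, the highest of them 49.5.

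The samples were protonema, the thread-like young growth form of a moss, of ecotype Gransden2004, in 4 groups of 1 library each. Wild type was taken from darkness and after 1 hour of red light (660 nm, 5 μmol per square metre per second, 25 °C), and the pubs hy2 double mutant was taken under these same conditions. All cultures were 10 days old, were labelled as chloronema (the chloroplast-rich filament type), and had spent 3 days in the dark, and the dark libraries were time 0 controls, so red light and the elapsed hour cannot be told apart. The labels call the double mutant phytochrome-deficient and do not say whether the 4 libraries came from separate cultures, how the alleles were made or how many mutant lines were used. The labelled tissue could not be checked against markers, because the files give gene identifiers without names.

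PUBS and HY2 are plant enzymes that make linear tetrapyrroles (bilins), the class of pigment that phytochromes, the red and far-red light receptors, bind as their chromophore. Plant genomes gain gene copies by duplication of whole genomes, of segments and of neighbouring genes in tandem, and a young tandem pair can be nearly the same in sequence. A short read from such a pair maps equally well to each copy, and only a read that covers a difference between the copies can be placed. How the remaining reads are shared out then sets the count of each copy, whereas the summed count of the copies does not depend on it so long as the sum holds every place to which the reads can map. No gene name, function or sequence was attached to these identifiers, so the copies are described by length, position in the identifier, reads and response.

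The libraries held 15098983 to 24560077 reads on genes. Below, 4 values given in a row stand in the order wild type dark, wild type red light, pubs hy2 dark, pubs hy2 red light. The members took 4.78%, 4.67%, 2.81% and 2.55% of all reads. Most of that genotype gap lay in 1 member, Pp1s428_13V6, and without it the shares were 1.80%, 1.86%, 1.96% and 1.62%. Between 294 and 296 of the 313 members had reads in each library. Their median listed length was 1.22 kb (range 0.063 to 5.75 kb), against 1.75 kb for 18654 singly mapped genes with at least 50 reads, defined as genes with under 10% multi-mapping reads in every library. The median member level was 6.45 to 9.26 RPKM (reads per 1000000 reads and kilobase of gene) by library, against 9.82 to 10.8 RPKM for the singly mapped genes.

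Few of the members' reads told copies apart, which follows from the rule that chose the members. Multiplying a member's reads by 1 minus its multi-mapping share gave a whole number, to within 0.02, for 99.7% to 100% of the members with reads in each library. This product is called the unique reads of a copy. Their median per member was 2 in the dark library of each genotype and 3 in each red light library. By library, 88 to 109 members with reads (29.9% to 36.8%) had no unique read at all. The median total was 151.7 to 234.9 reads, so each unique read stood beside many shared ones. For singly mapped genes with reads, taken without a minimum of reads, the median was 213 to 376 unique reads. Both lists were chosen by their multi-mapping shares, so this contrast is not a finding.

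In most equal-length groups the copies had equal multi-mapping shares. The median share of members with reads was 99.1% to 99.4% by library, so many shares lay close together whatever the length. The multi-mapping shares of copies were compared in every library in which both had reads. They were equal to within 0.001 for 56 sets of copies with 114 members, called sharing sets below. Of the 66 equal-length groups 52 were such a set as a whole, 3 held 1 or more sets beside other members or sets, and 11 held none. In 17 of the sets no copy had a unique read, so that every share stood at its upper limit and equal length alone joined the copies. Equal length alone also joined the 1.421, 2.04, 2.386, 2.819, 1.787, 0.836 and 0.063 kb pairs. Their unique reads lay only in libraries in which the partner had 0 reads, and these libraries were not compared. In the identifiers, the number after Pp1s is read here as the genome scaffold and the last number before V6 as the running number of the gene on it. By this reading 48 of the 56 sets lay on 1 scaffold, with a median distance of 3 gene numbers and a range of 1 to 12. Of the 11 groups without a sharing set, 1 lay on 1 scaffold. Members of unequal length were searched by a stricter rule, with at least 1 unique read and equal shares to within 1e-05 in all 4 libraries. It found 2 pairs, Pp1s419_7V6 with Pp1s419_8V6 (3.667 and 3.668 kb) and Pp1s219_115V6 with Pp1s339_11V6 (2.241 and 2.242 kb). The sharing sets were found to within 0.001 and without a need for unique reads, so the counts of the searches are not comparable. The number of unequal-length pairs within 0.001 is not given here.

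On some scaffolds with more than 1 set, the sets were neighbours by gene number. On scaffold 152 the 0.869 kb copies were genes 156 and 158, and the 0.21 kb copies were genes 157 and 159, in the order Pp1s152_156V6, Pp1s152_157V6, Pp1s152_158V6 and Pp1s152_159V6. On scaffold 372 the 0.444 kb copies Pp1s372_35V6 and Pp1s372_44V6 each preceded a 0.153 kb copy, Pp1s372_36V6 and Pp1s372_45V6. On scaffold 126 the order was mirrored, with 0.063 kb copies Pp1s126_170V6 and Pp1s126_181V6 outside the 0.555 kb copies Pp1s126_171V6 and Pp1s126_180V6. On scaffold 68, 0.159 kb copies (Pp1s68_11V6 and Pp1s68_23V6) flanked 3 copies of 1.453 kb (Pp1s68_12V6, Pp1s68_19V6 and Pp1s68_22V6). Scaffolds 32 and 330 were linked by 2 sets, at 1.961 kb and 0.813 kb.

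The reads of a sharing set were divided among its copies as their unique reads were. The 56 sets in 4 libraries gave 224 cases. In 93 cases several copies had unique reads, and each copy's share of the set's reads was within 0.0853 percentage points of its share of the unique reads. In 33 cases a single copy had unique reads, and of the 33 copies without any, 1 was given reads (1 read of Pp1s365_24V6). In 98 cases no copy had a unique read, and the shares were equal to within 1 point in 92 of them. The sets were found by equal multi-mapping shares, which already ties the total of a copy to its unique reads. The first 2 patterns are therefore largely what the search required. The median set received 175.8 reads for each unique read, and in 171 of the 224 cases the set had fewer than 10 unique reads.

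Copies of sets with the most unique reads had steadier shares over the libraries than copies with few. The pair Pp1s42_188V6 and Pp1s42_190V6 (0.967 kb) had the most unique reads. Pp1s42_188V6 held 44.5%, 46.9%, 45.7% and 44.7% of the pair's reads over the libraries. These shares rested on 677, 970, 436 and 403 unique reads of the pair. By contrast Pp1s582_3V6 held 40.0%, 42.9%, 66.7% and 83.3% of the 1.206 kb pair with Pp1s582_5V6, on 5, 7, 9 and 6 unique reads. The exact binomial 95% intervals on those reads were 5.27% to 85.3% in wild type dark and 35.9% to 99.6% in pubs hy2 red light, and they overlap. The 1.961 kb pair on scaffolds 32 and 330 had 7310, 9635, 8362 and 12406 reads on 30, 33, 50 and 95 unique reads, and Pp1s32_16V6 held between 10.0% (wild type dark) and 22.1% (pubs hy2 red light) of them. Its sum passed the size rule described below in none of the comparisons. Over the 5 sets with at least 100 unique reads in the 4 libraries together, the largest range of a copy's share had a median of 6.0 points and a maximum of 27.8. Over the 23 sets with 10 to 99 unique reads the median was 50 points, and 11 ranged by more than 50 points. Over the 11 sets with 1 to 9 the median was also 50 points. In the 17 sets with none it was 0, the shares being equal or nearly so in all but 2 of them.

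**Figure D1:**
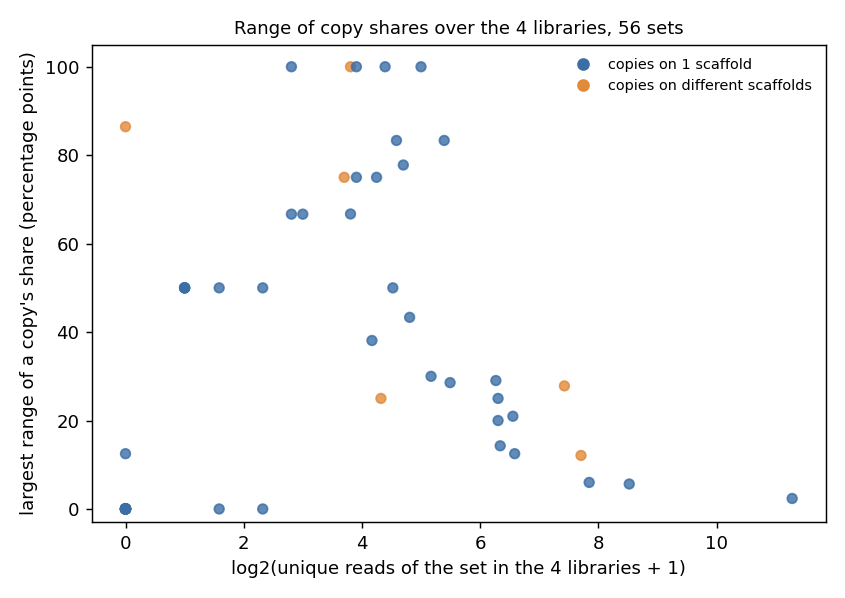
Each point is 1 of the 56 sharing sets, with log2 of its unique reads (plus 1) summed over the 4 libraries on the x axis and the largest range of a copy's share over the libraries, in percentage points, on the y axis. Sets with at least 100 unique reads stay at or under 27.8 points, sets with 1 to 99 reach 100 points, and sets with none lie mostly at 0.

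The 8 groups with the widest share ranges, among groups of at least 500 reads, include 5 sharing pairs in which the copy with most reads differed between libraries. Pp1s292_31V6 had 3711, 0, 2657 and 4773 reads. Its partner Pp1s292_33V6 (0.831 kb) had 371, 1562, 886 and 0. The first was thus absent where the second held all reads, and the reverse held in pubs hy2 red light. Behind these counts stood 10, 0, 3 and 15 unique reads of Pp1s292_31V6 and 1, 1, 1 and 0 of Pp1s292_33V6. The sum of the pair was 4082, 1562, 3543 and 4773 reads, so it too was low in wild type red light.

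Other pairs looked alike. Pp1s1158_3V6 had 0, 1396, 584 and 1369 reads and its 2.16 kb partner Pp1s13_101V6 had 1234, 233, 0 and 456, while their sum was 1234, 1629, 584 and 1825. Pp1s348_31V6 had 460, 110, 291 and 227 reads and Pp1s348_32V6 (4.874 kb) had 0, 551, 0 and 165. Per 1000000 reads their sum was 25.1, 26.5, 19.9 and 17.5, so the sum moved far less than either copy. Pp1s118_199V6 and Pp1s118_207V6 (0.905 kb) were each at 0 in 1 pubs hy2 library, the former in red light and the latter in the dark. Pp1s126_171V6 was at 0 in wild type red light and Pp1s126_180V6 (0.555 kb) in pubs hy2 red light.

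In 3 of the 8 groups equal length did not pick out a sharing set, or picked out more than 1. The 1.105 kb group held the set Pp1s47_158V6 with Pp1s47_160V6 and the set Pp1s206_2V6 with Pp1s497_11V6. Between the wild-type libraries, dark to red light, the former pair went from 169 to 2357 reads and the latter from 506 to 243. The 0.932 kb copies Pp1s133_105V6 and Pp1s133_107V6 never had reads in the same library, so their shares could not be compared. The 1.316 kb genes Pp1s1_5V6 and Pp1s18_53V6 lay on different scaffolds and differed in their shares.

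**Figure D2:**
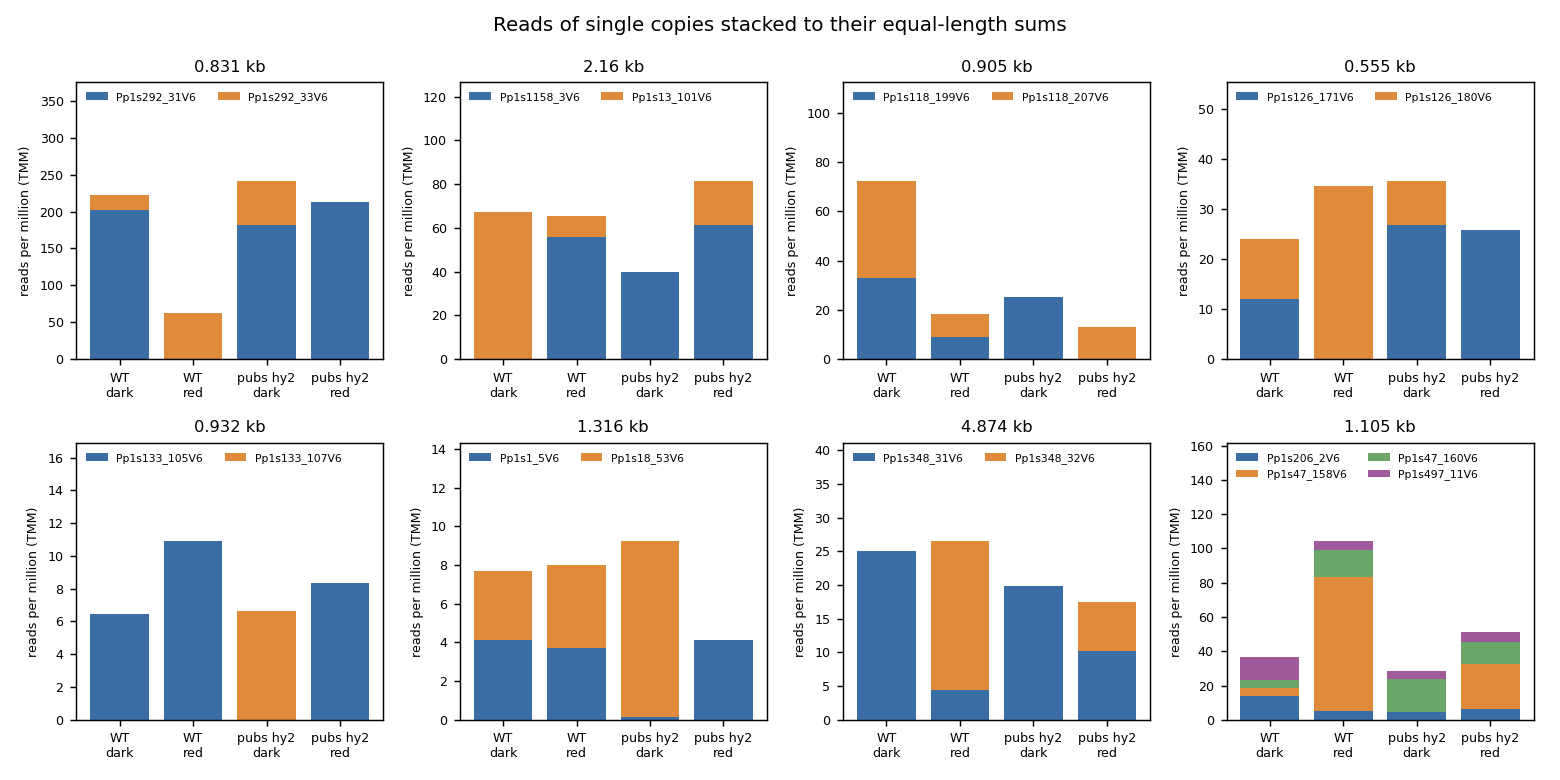
TMM-scaled reads per 1000000 of each copy (colours) stacked to the sum of its equal-length group, for the 8 groups with the widest share ranges and 1 bar per library. In the 0.831 kb pair the whole bar is Pp1s292_33V6 in wild type red light and Pp1s292_31V6 in pubs hy2 red light, and in the 4.874 kb pair the bars stay between 17.5 and 26.5 per 1000000 while their colours change.

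Differences between libraries were read by size, because no group had a replicate. The size rule called a feature higher or lower when it differed by a factor of 2 or more, had 50 or more reads in the libraries compared, and had a fold whose exact 95% counting interval lay clear of 1. Such features are said to have changed, and features with fewer reads are not counted as measured. The rule compares libraries, not conditions. Reads carried no molecular identifiers, so the intervals cover the counting error of reads only. They also treat the reads of a copy as counted one by one, which the sharing out of reads by a few unique reads does not meet. Where a feature had 0 reads in 1 library, the fold was formed with 3 counts in its place, which makes it a bound.

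Red light against dark in wild type changed 78 of 244 measured members, 40 higher and 38 lower, where 11.6% of all 18303 measured genes changed (6.06% higher and 5.49% lower). Counted on unique reads alone, which are few and give wide intervals, 22 of these members changed (9.02%). Here and below, this percentage is of all measured members, also those with few or no unique reads. It is therefore not comparable with the share of all genes. In equal-length groups 52 of 111 measured copies changed (46.8%), 22 higher and 30 lower. After summing, 14 of 63 groups changed (22.2%), 6 higher and 8 lower, against 11.4% of all features with these groups summed (5.99% and 5.38%). Of the 52 changed copies, 20 belonged to a group whose sum changed the same way, 29 to a group whose sum did not change and 3 to a group whose sum changed the opposite way. Among the 44 changed copies in sharing sets, these counts were 20, 23 and 1 by the sums of the sets. In 10 groups some copies were higher and others lower. The median absolute log2 fold was 0.82 for the copies and 0.32 for the sums, against 0.29 for all measured genes. The median signed log2 fold was -0.13 for the copies, -0.05 for the sums and -0.02 for all measured genes.

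The most extreme copies stood in equal-length groups whose sums changed far less. Pp1s85_186V6 had the highest ratio, 2012 (counting interval 361 to 79481), with 0.5 deposited reads without light and 2739 with it. The size of this ratio rests on the 0.5 reads having been rounded up to 1, and is not comparable with folds formed with 3 counts. It had 0 and 2 unique reads in these libraries and no read in pubs hy2. Its 2.135 kb group, with Pp1s85_170V6 and Pp1s92_84V6, had 5663 and 6957 reads and a fold of 0.902 (0.871 to 0.935). The genes of this group formed no sharing set, so the sum need not hold the places that share reads with Pp1s85_186V6. Pp1s292_31V6 had the lowest fold, at least 1684-fold lower, whereas the sum of its pair was 0.281-fold (0.265 to 0.298).

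Among the equal-length sums, 3 groups led the increases in wild type. The 0.833 kb group, Pp1s685_4V6 and Pp1s56_169V6, went from 278 to 6478 reads and was 17.1-fold higher (15.2 to 19.4). Nearly all of them belonged to Pp1s685_4V6, on 0 and 1 unique reads, and the 2 genes were no sharing set. The 1.295 kb pair Pp1s21_274V6 and Pp1s21_279V6 had 19 and 117 reads, 4.52-fold higher (2.77 to 7.78), and no unique read in any library. Before rounding this pair had 18.8, 116.6, 498.4 and 471.4 reads over the libraries. Whether these reads also map outside the pair was not tested. The 1.037 kb pair Pp1s27_331V6 and Pp1s27_332V6 had 4606 and 19714 reads, 3.14-fold higher (3.04 to 3.25). Its unique reads, which do not depend on the sharing out, numbered 25 and 82, a 2.41-fold increase (1.52 to 3.94).

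The 3 lowest sums in wild type had nearly the same fold. The 0.905 kb pair on scaffold 118 had 1330 and 453 reads, 0.250-fold (0.224 to 0.278). The 1.567 kb pair Pp1s240_64V6 and Pp1s240_68V6 had 1990 and 689 reads, 0.254-fold (0.233 to 0.277). The 1.466 kb pair Pp1s140_2V6 and Pp1s308_31V6 had 902 and 313 reads, 0.255-fold (0.223 to 0.290).

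In pubs hy2, red light against dark changed 67 of 265 measured members, 33 higher and 34 lower, where 6.42% of all 18531 measured genes changed (4.22% higher and 2.2% lower). On unique reads alone 22 did (8.30%). In equal-length groups 33 of 122 measured copies changed (27.0%), 16 higher and 17 lower, and after summing 3 of 66 groups did (4.55%), 2 higher and 1 lower, against 6.28% of all features with these groups summed (4.16% and 2.12%). Of the 33 changed copies, 29 belonged to a group whose sum did not change. The median absolute log2 fold was 0.61 for the copies and 0.42 for the sums, against 0.26 for all measured genes. The signed median was -0.30 for the copies, -0.28 for the sums and 0.00 for all measured genes.

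The 3 changed sums in pubs hy2 were small or uneven. The 0.447 kb pair, Pp1s143_3V6 and Pp1s61_328V6, went from 15 to 118 reads and was 5.15-fold higher (3.00 to 9.49). These genes lay on different scaffolds and had no unique read, and the reads were uneven, with 13, 54, 15 and 16 of Pp1s143_3V6 and 3, 3, 0 and 102 of Pp1s61_328V6. The 2.16 kb pair had 584 and 1825 reads, 2.04-fold higher (1.86 to 2.25). The 1.316 kb group had 135 and 92 reads, 0.446-fold (0.338 to 0.585). Next in rank and short of the limit were the 1.105 kb group at 1.82-fold (1.62 to 2.04), and the 0.905 kb and 1.466 kb pairs at 0.519-fold (0.444 to 0.607) and 0.534-fold (0.495 to 0.576).

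The copies with the widest folds in pubs hy2 again had few unique reads. Pp1s140_2V6 had 1139 reads in the dark on 3 unique reads and 0 with light, a fold of 0.00172 or less. Pp1s303_8V6 had 1 and 254 reads on 0 and 5 unique reads, a ratio of 166.2 (29.6 to 6588). The 5-copy group of the latter (2.069 kb) had 9748 and 8834 reads, 0.593-fold (0.576 to 0.610). Pp1s303_8V6 was in no sharing set, and the only set of this group was Pp1s365_22V6 with Pp1s365_24V6. The sum therefore need not hold the places that share reads with Pp1s303_8V6.

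**Figure D3:**
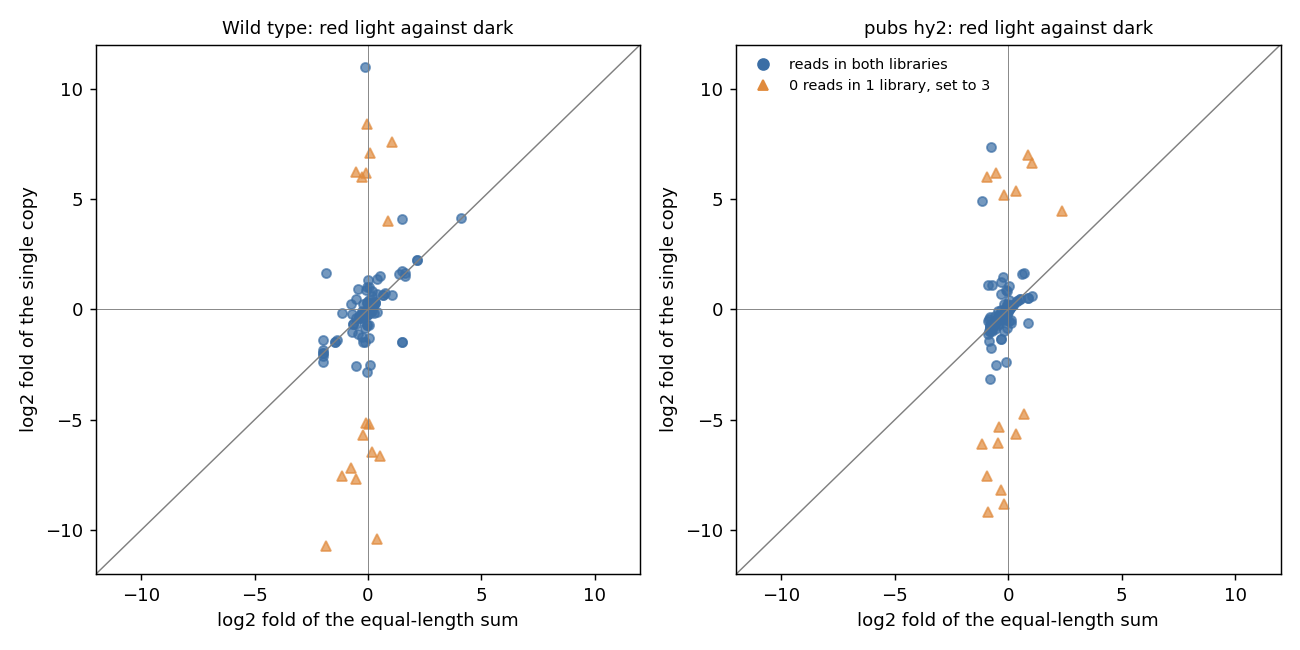
Log2 fold of red light against dark of each measured copy (y axis) against that of its equal-length sum (x axis), in wild type (left) and pubs hy2 (right). Circles had reads in both libraries, triangles had 0 reads in 1 library and were set against 3 counts, and the line marks equal folds. The copies reach 10.97 log2 units from 0 in wild type and 9.18 in pubs hy2, while the sums stay within 4.10 and 2.36.

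Comparing pubs hy2 with wild type in darkness, 132 of 254 measured members differed, 75 higher and 57 lower in pubs hy2, where 24.4% of all 18266 measured genes did (13.7% higher and 10.6% lower). On unique reads alone 51 members did (20.1%). In equal-length groups 65 of 118 copies differed (55.1%), and 26 of 65 sums did (40.0%), 18 higher and 8 lower, against 24.2% of all features with these groups summed (13.7% and 10.5%). In red light 153 of 272 members differed, 80 higher and 73 lower, where 26.2% of all 18868 measured genes did (15.5% higher and 10.7% lower). On unique reads alone 56 did (20.6%). In equal-length groups 80 of 122 copies (65.6%) and 30 of 66 sums (45.5%) differed, 16 sums higher and 14 lower, against 26% of all features with these groups summed (15.4% and 10.5%). Of the 65 differing copies in the dark, 37 had a group sum that differed the same way and 28 a sum that did not differ. Of the 80 in red light, 50 had a sum that differed the same way, 24 a sum that did not and 6 an opposite one. The median absolute log2 fold was 1.27 for the copies and 0.75 for the sums in the dark, and 1.38 and 0.94 in red light. For all measured genes it was 0.52 and 0.54.

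Groups on scaffold 68 had the highest genotype folds. The 3 copies of 1.453 kb together had 42, 46, 1273 and 1150 reads. They were 38.0-fold (27.9 to 53.0) higher in pubs hy2 without light and 27.9-fold (20.8 to 38.3) higher with it. The flanking 0.159 kb pair had 4, 4, 164 and 160 reads, 51.4-fold (19.7 to 190.9) and 44.7-fold (17.1 to 165.9) higher. No copy of either group had a unique read in any library, and the copies of each group had equal reads. Before rounding, the sums were not all whole numbers. They were 41.8, 46.0, 1272.8 and 1150.2 reads at 1.453 kb, and 4.4, 4.4, 164.3 and 160.4 at 0.159 kb. Whether these reads also map to places outside the sums was not tested. One more set on this scaffold, the 5.754 kb pair Pp1s68_143V6 and Pp1s68_150V6, had 145, 71, 68 and 71 reads and was 0.588-fold (0.434 to 0.789) and 1.12-fold (0.792 to 1.57), which did not pass the rule.

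Other sums were higher in pubs hy2 in one or both light conditions. The 1.295 kb pair on scaffold 21 was 32.9-fold (20.8 to 55.0) higher in the dark and 4.49-fold (3.66 to 5.55) in red light. The 1.567 kb pair on scaffold 240 was 2.84-fold (2.69 to 2.99) higher in the dark and 8.31-fold (7.67 to 9.01) in red light. The 1.037 kb pair on scaffold 27 was 6.09-fold (5.90 to 6.29) higher in the dark and 2.11-fold (2.07 to 2.15) in red light. Its unique reads gave 5.42-fold (3.48 to 8.73) and 2.07-fold (1.57 to 2.74).

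Sums lower in pubs hy2 included the most abundant gene of the wild-type libraries. In the 0.93 kb group nearly all reads were those of Pp1s428_13V6, which had 523628, 690111, 127587 and 214327 reads. It made the sum 0.306-fold (0.304 to 0.308) in the dark and 0.347-fold (0.345 to 0.348) in red light. Its 3552, 4717, 1962 and 2923 unique reads gave smaller differences, 0.692-fold (0.655 to 0.732) and 0.692-fold (0.660 to 0.725). The shared reads of this gene thus differed more between the genotypes than its unique reads did, and its only equal-length partner, Pp1s128_33V6, held 0.141% to 0.240% of the sum. Where else these reads map was not tested.

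The remaining leading decreases were smaller in reads. The 0.153 kb pair on scaffold 372 had 324 and 71 reads in the dark, 0.275-fold (0.209 to 0.356), and no unique read. The 0.733 kb pair Pp1s105_9V6 and Pp1s105_12V6 had 312 and 78 reads in the dark, 0.313-fold (0.241 to 0.403), and 386 and 113 in red light, 0.327-fold (0.263 to 0.404). In red light the 0.833 kb group was 0.123-fold (0.114 to 0.133), the 0.369 kb pair Pp1s629_1V6 and Pp1s208_186V6 was 0.272-fold (0.251 to 0.294), and the 0.836 kb pair Pp1s428_1V6 and Pp1s428_9V6 was 0.277-fold (0.265 to 0.289). The copies of the last pair had equal reads in 3 libraries, and in wild type red light 4 unique reads went with 10509 reads of Pp1s428_1V6 and 0 of Pp1s428_9V6.

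Among copies in equal-length groups, Pp1s365_24V6 was the lowest in pubs hy2 in both light conditions, and Pp1s292_31V6 the highest in red light, at least 1776-fold higher. Pp1s365_24V6 had 3958, 5207, 1 and 0 reads, a ratio in the dark of 0.000317 (8.02e-06 to 0.00177) that rests on 1 read. The sharing partner Pp1s365_22V6 (2.069 kb) had 1131, 2313, 3050 and 2934. Their sum was 5089, 7520, 3051 and 2934 reads, 0.751-fold in the dark and 0.436-fold in red light. Of the pair's 9, 13, 2 and 1 unique reads, 7, 9, 0 and 0 were those of Pp1s365_24V6. The exact intervals of its share were 40.0% to 97.2% in wild type dark and 0% to 84.2% in pubs hy2 dark, which overlap. Pp1s1158_3V6 had the highest dark fold, at least 244.0-fold higher in pubs hy2 on 0 and 1 unique reads, and the sum of its pair was 0.593-fold (0.537 to 0.655).

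Where enough unique reads existed, they moved the way the sums did. Sums were compared where they had changed, had at least 10 unique reads in the 2 libraries together and at least 1 in each. This held for 5 of 14 changed sums in wild type, 9 of 26 in the dark and 12 of 30 in red light. The fold of the unique reads had the direction of the sum in each of these 5, 9 and 12, and its counting interval excluded 1 in 3, 7 and 10. In pubs hy2 red light against dark 0 of the 3 changed sums had that many. These sums were chosen by total reads that contain the unique reads, although the latter are a small part of them.

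**Figure D4:**
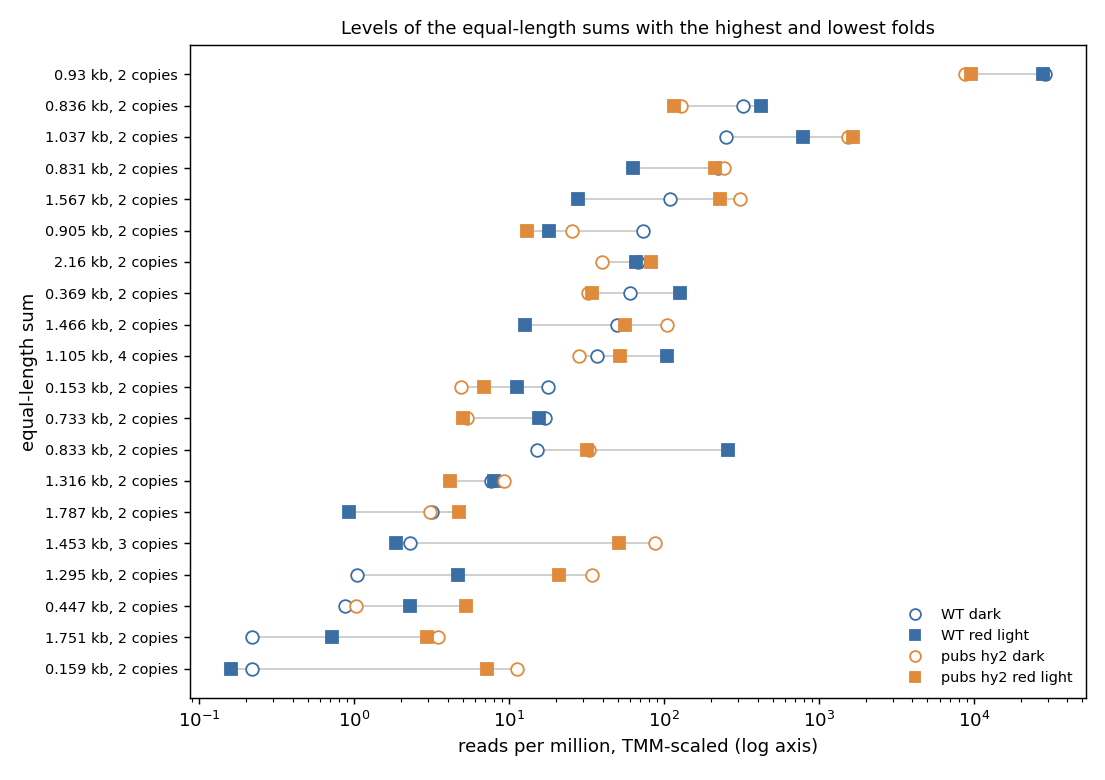
TMM-scaled reads per 1000000 (log axis) of each equal-length sum with 1 of the 3 highest or 3 lowest folds in any comparison, with 1 symbol per library. Wild type is blue, pubs hy2 orange, dark open circles and red light filled squares. The 1.453 kb and 0.159 kb groups of scaffold 68 show the pubs hy2 symbols far to the right, and the 0.833 kb group shows wild type red light apart from the other 3 libraries.

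The red light fold differed between the genotypes in 118 of the 313 members, 53 with a larger ratio in pubs hy2 and 65 with a smaller one, where 14.4% of all 19825 measured genes did (8.39% larger and 6.06% smaller). On unique reads alone 29 members did (9.27%). In equal-length groups 70 of 143 copies (49.0%) and 17 of 66 sums (25.8%) differed, 8 sums with a larger ratio and 9 with a smaller one, against 14.2% of all features with these groups summed (8.29% and 5.94%). In 19 groups copies differed in both directions. The highest ratios of sums were those of the 1.787 kb pair Pp1s257_51V6 and Pp1s257_54V6 at 5.29 (2.87 to 9.37), the 0.831 kb pair at 3.14 (2.92 to 3.37) and the 1.567 kb pair at 2.93 (2.66 to 3.22). Each of the 3 was lower after red light in wild type by the size rule and not changed in pubs hy2. The lowest were those of the 0.833 kb group at 0.0567 (0.0481 to 0.0671), the 1.295 kb pair at 0.137 (0.0852 to 0.229) and the 1.751 kb pair Pp1s27_154V6 and Pp1s27_155V6 at 0.256 (0.0938 to 0.834). The last rested on 4 and 18 reads in wild type. The sharing pair Pp1s47_158V6 and Pp1s47_160V6, summed apart from the rest of its 1.105 kb group, had a ratio of 0.194 (0.159 to 0.239).

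Single copies reached wider ratios, up to 1979 for Pp1s292_31V6, whose 0 reads in wild type red light were set to 3 counts.

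**Figure D5:**
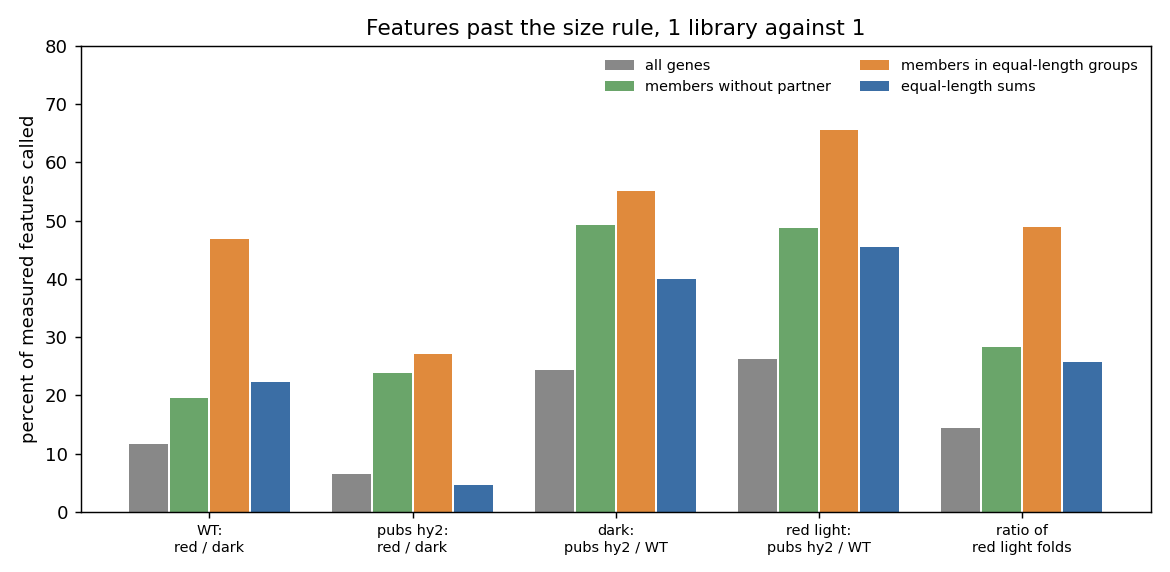
Percent of measured features past the size rule in each comparison of 1 library with 1 (and, at the right, for the ratio of the red light folds), for all genes, lone members, members in equal-length groups and equal-length sums. The copies in equal-length groups stand highest in each comparison, at 27.0% to 65.6%, and their sums stand at 4.55% to 45.5%.

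The members were also split by their unique reads. With at least 10 unique reads in each library compared, 11 of 84 measured members changed in wild type (13.1%) and 2 of 81 in pubs hy2 (2.47%). With fewer, 67 of 160 (41.9%) and 65 of 184 (35.3%) changed. Between genotypes 20 of 72 (27.8%) in the dark and 31 of 87 (35.6%) in red light changed with at least 10 unique reads, and 112 of 182 (61.5%) and 122 of 185 (65.9%) with fewer. Among all measured genes the shares were 11.6%, 6.42%, 24.4% and 26.2%. A copy at 0 in a library has no unique read there, so this split follows the outcome in part.

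The 4 libraries together allowed a test of effects shared by both genotypes or both light conditions. In an additive model of genotype and light fitted to all genes, edgeR's quasi-likelihood test with Benjamini-Hochberg adjustment at 0.05 found a genotype effect for 92 of 305 tested members, 61 higher and 31 lower in pubs hy2, against 23% of all 20409 genes (14% higher and 9.07% lower). In equal-length groups 34 of 137 copies passed. When these copies were replaced by their sums, 25 of 66 sums passed, 15 higher and 10 lower, against 24.1% of all 20338 features (14.5% and 9.63%). The median log2 fold was 0.06 for the sums and -0.04 for all features. The model has 1 residual degree of freedom. With 1 library per group it holds any difference of the red light fold between the genotypes, together with noise that may be technical. The p-values reflect this scatter of 4 libraries only, and not a scatter between replicates.

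Among the named sums, those of scaffold 68 had the largest genotype effects in that fit. They and the other sums named by fold were chosen on these same libraries. Their lead and their p-values are therefore no separate evidence. By edgeR the 1.453 kb group had a log2 fold of 5.03 with an adjusted p of 0.000664 and the 0.159 kb pair 5.55 with an adjusted p of 0.00231, each higher in pubs hy2 in 2 of 2 light conditions. The 1.295 kb pair had 3.41 (edgeR adjusted p = 0.020), the 1.567 kb pair 2.29 (edgeR adjusted p = 0.0134) and the 1.037 kb pair 1.85 (edgeR adjusted p = 0.0271). The named 1.751 kb pair at 2.85, with 4 and 18 reads in wild type, and the named 1.466 kb pair at 1.62 also passed. Of the sums not named by the rule, the 1.229 kb, 1.509 kb and 1.547 kb pairs, picked out after their values were seen, had log2 folds of 3.19, 2.99 and 2.98 with edgeR adjusted p of 0.00174, 0.000926 and 0.000926. The lowest was the 0.733 kb pair at -1.63 (edgeR adjusted p = 0.0111). The 0.836 kb pair on scaffold 428 had -1.58 (edgeR adjusted p = 0.00681) and the 0.93 kb group -1.60 (edgeR adjusted p = 0.0291). The named 0.369 kb pair at -1.38 and the named 2.135 kb group at -1.06 also passed. The abundant 0.967 kb pair on scaffold 42 had -0.94 and missed the threshold (edgeR adjusted p = 0.111). For red light edgeR found 0 members and 0 sums at an adjusted p under 0.05 (0% of all genes), with 46 and 14 at an unadjusted p under 0.05, and the smallest edgeR adjusted p was 0.106 for a member and 0.144 for a sum. DESeq2 found 10 members (1.64% of all genes passed) and 5 sums (1.65% of all features).

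The lone members were counted apart from the grouped copies. Of these, 26 of 133 changed for red light in wild type (19.5%), 34 of 143 in pubs hy2 (23.8%), 67 of 136 between genotypes in the dark (49.3%) and 73 of 150 in red light (48.7%). Of all measured genes 11.6%, 6.42%, 24.4% and 26.2% changed. No other member had exactly their length, so no equal-length sum could be formed for them. The shares of lone and grouped members were not tested against each other.

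The 5 lone members with the most reads had at least 13 unique reads in each library. Pp1s8_244V6 (0.978 kb) had 907, 2956, 13999 and 15817 reads. It was 2.39-fold higher (2.22 to 2.58) after red light in wild type and 0.739-fold (0.722 to 0.756) in pubs hy2, and 19.3-fold (18.1 to 20.7) and 5.97-fold (5.74 to 6.22) higher in pubs hy2 in the dark and red light. Its 97, 285, 1309 and 1635 unique reads gave 2.16, 0.817, 16.9 and 6.41 for the same 4 folds. Pp1s17_265V6 (1.078 kb) had 2130, 3562, 13093 and 17485 reads, 7.71-fold (7.36 to 8.07) and 5.48-fold (5.29 to 5.68) higher in pubs hy2.

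The other 3 changed less or unevenly. Pp1s30_86V6 (0.965 kb) had 8776, 8988, 12660 and 25472 reads and was 3.16-fold (3.09 to 3.24) higher in pubs hy2 in red light, while its unique reads gave 1.59-fold (1.48 to 1.70), short of the size limit. Pp1s419_7V6 (3.667 kb) had 14761, 12199, 3420 and 5840 reads and was 0.290-fold (0.280 to 0.301) in pubs hy2 in the dark. Summed with Pp1s419_8V6, the gene of nearly equal length that had the same shares, it had 21400, 19133, 5524 and 8394 reads and was 0.324-fold (0.314 to 0.333) in the dark. Pp1s20_300V6 (2.442 kb) had 11442, 9789, 5160 and 7349 reads and passed the size rule in none of the 4 comparisons.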

How the data were processed

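The authors deposited, per the file headers, an estimated count of reads per gene and library, of which 95.4% to 95.6% were whole numbers. The authors' RPKM values were reads per 1000000 reads and kilobase of gene, per the file headers. The fraction of each gene's reads that were multi-mapping was also computed by the authors, per the file headers, and the gene length in kilobases was given. Aligner, treatment of multi-mapping reads, genome build and annotation are not given in the sources used here. Poly-A RNA was fragmented, copied by random priming, size-selected at 200 to 400 bp and amplified by 18 PCR cycles with no step that keeps the strand, per the labels' protocols.

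Estimated counts were rounded, sums after adding. Scaling used TMM factors of 1.04, 1.02, 0.969 and 0.973 (edgeR 4.0.16, R 4.3.3). Intervals of folds are Clopper-Pearson intervals of the share of reads, and those of a ratio of folds were formed on logarithms with 0.5 added to every count. The floor of 3 counts per library equalled 0.120 to 0.205 reads per 1000000. With no replicates, the additive model (edgeR, expression filter) gave the only test. Alternatives were DESeq2 1.42.0, limma 3.58.1, other scalings, minimum reads, and other member and group rules. Steps were tested on simulated data. Python was 3.11.15, scipy 1.17.1, pandas 2.3.3, numpy 2.4.6, matplotlib 3.10.9.

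Members, equal-length rule and size rule were chosen with earlier results of these data known. Named are the 8 groups with the most reads, the 8 with the widest range of a copy's share (at least 500 reads), the 3 highest and 3 lowest sums and the extreme grouped copies in each comparison, and the 5 lone members with the most reads. Sharing sets, the split by unique reads, and neighbours or sets named beside these were chosen after their values were seen.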

Additional observations from a re-analysis of the deposited data

Results flagged for a closer look

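In 13 of the named sums and genes, red light went with opposite directions in the genotypes, and neither counting interval held 1. No replicates exist to test these differences. The values that follow are log2 of the pubs hy2 fold divided by the wild-type fold. Among the sums they were 0.18 for the 0.93 kb group, -1.03 for 0.967 kb, -0.93 for 2.069 kb, -0.52 for 0.836 kb, -0.995 for 0.555 kb, -2.87 for 1.295 kb, 1.16 for 0.153 kb and 2.40 for 1.787 kb. Among single genes they were 10.95 for Pp1s292_31V6 (0 reads set to 3 counts), 0.81 for Pp1s30_86V6, -0.49 for Pp1s17_265V6, 0.88 for Pp1s419_7V6 and -1.70 for Pp1s8_244V6. Of the 13, the 1.295 kb and 1.787 kb sums and Pp1s292_31V6 and Pp1s8_244V6 changed by the size rule in wild type, and none changed by it in pubs hy2. The 1.295 kb pair went from 19 to 117 reads in wild type and from 498 to 471 in pubs hy2, and it had no unique read, so the part of the sharing out in its reads was not tested.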

How the results depend on the processing

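Counts are given in the order red light in wild type, red light in pubs hy2, genotype in the dark, genotype in red light, and the ratio of red light folds. The members gave 78, 67, 132, 153 and 118 changes and the sums 14, 3, 26, 30 and 17. Asking for the multi-mapping share in all 4 libraries left 193 of 313 members and 41, 35, 81, 90 and 58 changed members and 6, 0, 16, 17 and 8 changed sums, and it drops any copy at 0 in a library by construction. Unique reads alone gave 22, 22, 51, 56 and 29. Restriction to members in sharing sets, chosen after seeing the data, gave 44, 25, 51, 68 and 55. A minimum of 200 reads gave 42 members for red light in pubs hy2. In the additive model, limma on log2 of RPKM plus 0.1 found a genotype effect for 21 members and 5 sums (edgeR 92 and 25). For red light, where edgeR found 0, DESeq2 found 10 members and 5 sums, and edgeR without the filter on low counts found 6 members. The cause of the differences between the models was not tested. The remaining planned counts (84) and the sums of sharing sets stayed within 1.5 times, and no named value reversed in direction where it had been called. Library totals moved the median log2 fold of all measured genes in the dark from -0.08 to -0.18. Of the values of named genes and sums under other scalings, 675 moved by less than their counting interval and 81 by more. No paired analysis was possible because each group has 1 library and the labels give no replicate numbers. Leaving a library out of the additive model leaves no residual degree of freedom and was not run. The small number of unique reads limits what can be said of a single copy.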
